A study of Mus musculus with 6 samples.

Results

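The 34 genes described here are expressed by the macrophages and other myeloid cells of the dorsal root ganglion, and were taken by symbol from a fixed list. All 34 were found among the 55809 gene symbols of the count files, and all 34 passed the low-count filter that left 20146 genes to test. The ganglia came from C57BL6J mice at 8 weeks of age. The 3 control pools held offspring of undisturbed dams, and the 3 prenatal stress pools held offspring of dams restrained in tubes in bright light for 30 min, 3 times daily. The stress ran from E13 to E18 in the protocol text and from E13.5 to E18.5 in the series design. By its title each pool came from 3 mice, while the protocol text gives 3 mice per group. Both sexes were used according to the labels, and no litter, cage or sex is given for a pool. The comparison asked how the level of each macrophage gene in the adult offspring's ganglia differed after stress of the dam. The test was edgeR's quasi-likelihood F test, with Benjamini-Hochberg adjustment over every gene that passed the filter, and each adjusted p below is from it unless another test is named. Because litters are not given, the p-values measure the spread between pools.

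Macrophages sit between the sensory neurons of a ganglion and along its vessels, where they clear debris, sample the blood side of the permeable capillaries and respond when a nerve is damaged. Their survival depends on the receptor Csf1r, and their gene programme on the transcription factor PU.1, which Spi1 encodes. Scavenger receptors such as Mrc1, Cd163 and Lyve1 mark resident macrophages along vessels, whereas Ptprc, Itgam and Lyz2 are also used by neutrophils, monocytes or lymphocytes that circulate in blood. Neuron markers summed to 6899 to 7362 CPM (gene counts scaled to a common library size of 1e+06) per pool and satellite glia markers to 992 to 1175 CPM, so both main cell types of a ganglion were present in every pool. The libraries held 51.7 to 87.4 M gene counts (M, 1e+06), and the lowest count of any macrophage gene in any pool was 12, for Timd4. In a bulk sample, fewer macrophages and less RNA per macrophage cannot be told apart.

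None of the 34 macrophage genes passed the edgeR test, where 0.129% of all genes tested did (0.0844% higher and 0.0447% lower in prenatal stress). Their median log2 fold change was -0.03, beside 0.01 over all genes tested, with 20 negative and 14 positive values. At an unadjusted p under 0.05 there was 1 macrophage gene (2.94%), the receptor P2ry12, against 11.1% of all genes tested. P2ry12 was lower in prenatal stress, as were 5.11% of all genes at that p, while 6.01% were higher. DESeq2's Wald test also called 0, with 2 genes at an unadjusted p under 0.05, P2ry12 and Cd163. DESeq2 gave no adjusted p for 14 of the 34. The 2 groups of pools did not overlap for 2 macrophage genes, P2ry12 and Trem2, which is 5.88% of them, against 18.1% of all genes tested. Both were lower in prenatal stress, where 8.76% of all genes lay below the controls without overlap and 9.33% above. For 31 of the 34 the 95% interval of the log2 fold change lay within -1 to 1, and the exceptions were Ptprc, Itgam and Cd163. Standard errors ran from 0.07 to 0.42 on the log2 scale.

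**Figure D1:**
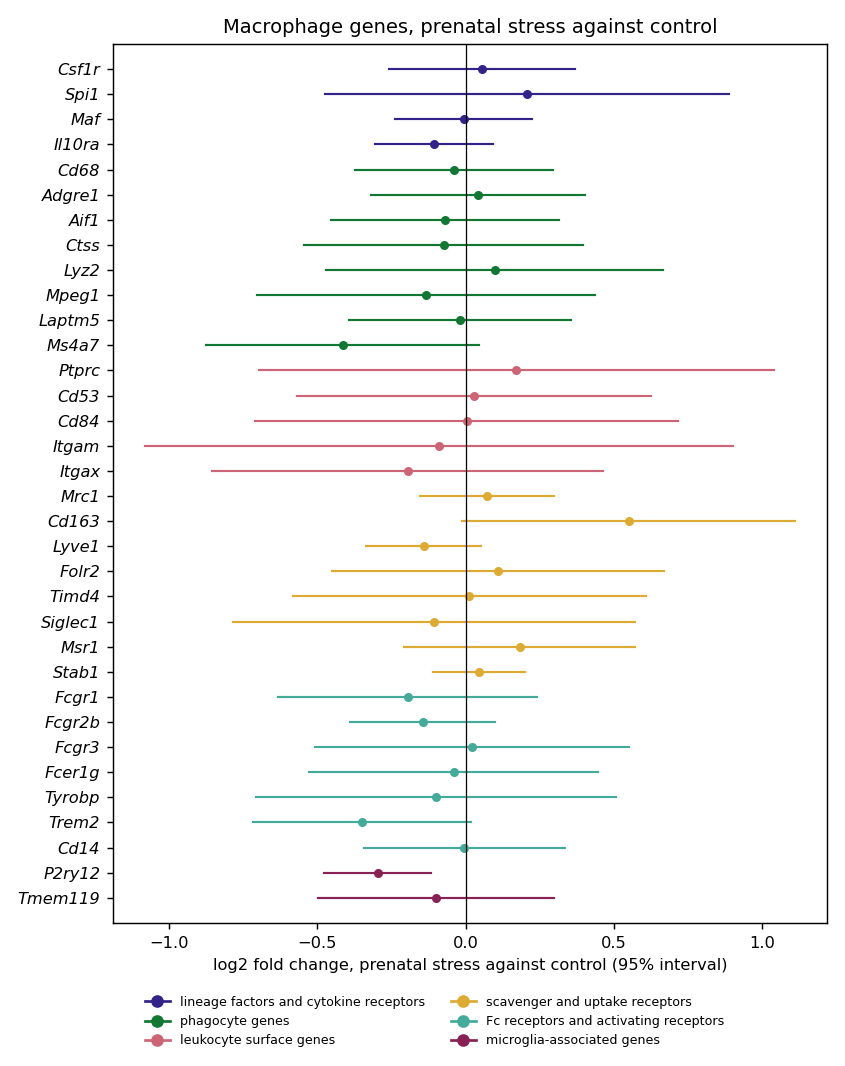
Log2 fold change of each of the 34 macrophage genes, prenatal stress against control (x axis), with its 95% interval from the edgeR fit as a line and colours for the role of the gene. The interval of P2ry12 (-0.48 to -0.12) is the only one that leaves out 0 before adjustment, and the widest is that of Itgam (-1.08 to 0.90).

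What did differ was the pool. Most of the 34 genes shared a pattern across the 6 pools that did not follow the groups. Of the 34, 23 (67.6%) had their lowest value in stress pool 1, where 14% of all genes tested did. Stress pool 3 was the highest for 16 of the 34 (47.1%, against 24.5% of all genes). Control pool 1 was the lowest control and stress pool 1 the lowest stress pool for 17 of 34 (50%, against 14.6% of all genes), and the pools numbered 3 were highest in both groups for 18 (52.9%, against 13.5%). Summed over the 34 genes the level was 326, 322 and 362 CPM in control pools 1 to 3, and 282, 361 and 380 CPM in stress pools 1 to 3. Maf and Lyz2 made up 23.2% and 21.6% of that sum. With stress pool 1 set aside, the lowest pool was control pool 1 for 16 of the 34 and control pool 2 for 8.

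Same-numbered pools were then set side by side. In the first pair, stress pool 1 stood below control pool 1 for 30 of the 34 genes, and above it for 4 (11.8%, against 51.2% of all genes). In the second pair stress was above control for 27 of 34 (79.4%, against 52.2%), and in the third for 20 (58.8%, against 50.2%). The median log2 ratio of the 34 genes was -0.35, 0.17 and 0.05 in these 3 pairs. The direction of the macrophage difference changed with the pair of pools compared. The median log2 fold change of the list was 0.13 without stress pool 1 and 0.05 without control pool 3, and between -0.05 and -0.14 without any other 1 pool.

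**Figure D2:**
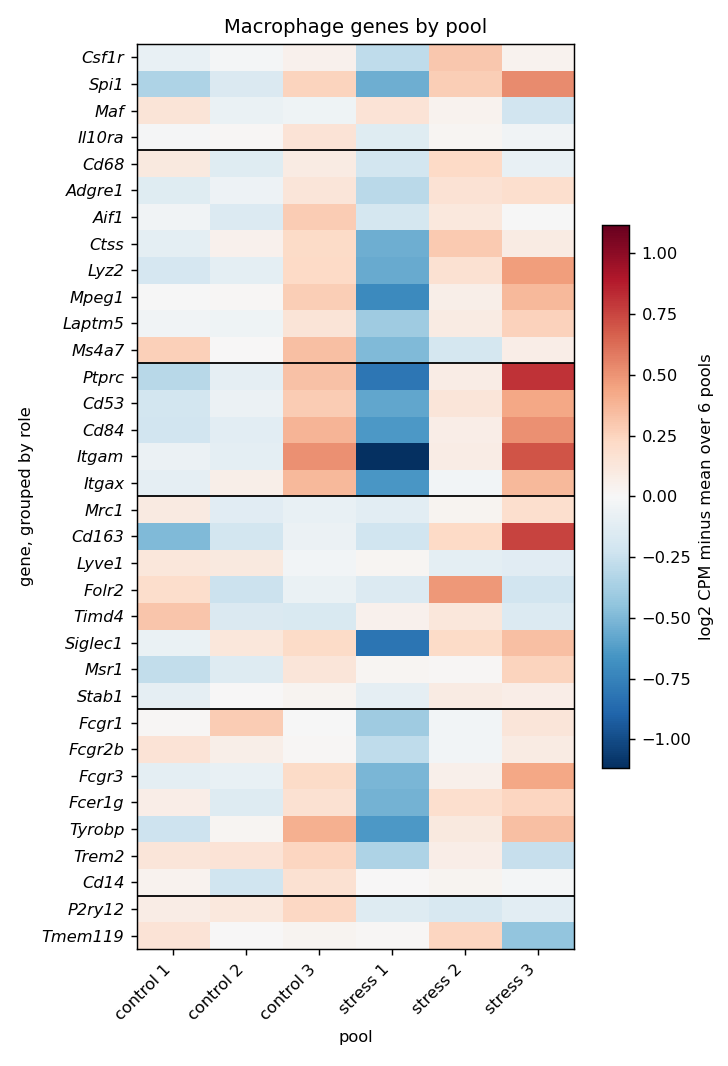
Log2 CPM of each macrophage gene (rows, ordered by role) in each of the 6 pools (columns), as the difference from the mean of the gene over the pools. Blue fills stress pool 1 in 28 of the 34 rows, with the deepest blue there for Itgam (-1.12), and all 5 leukocyte surface genes are blue in stress pool 1 and red in stress pool 3.

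Markers of other cell types were read beside this pattern. The 14 neutrophil and marrow markers, such as the calgranulins S100a8 and S100a9, summed to 155, 204 and 336 CPM in the control pools and to 51.2, 244 and 455 CPM in the stress pools. All 14 were detected and 0 passed the test. The 5 erythroid markers, mainly haemoglobin genes, summed to 183, 231 and 385 CPM and to 93.9, 370 and 619 CPM. Both sums put the 6 pools in the same order, with stress pool 1 lowest and stress pool 3 highest. A pair of pools ordered as the neutrophil sum is thus also ordered as the erythroid sum. Over the 15 pairs of pools, a macrophage gene was ordered as the neutrophil sum in a median of 12 pairs, against 7 for all genes tested. For 6 of the 34 genes all 15 pairs were ordered that way (17.6%, against 0.918% of all genes): Lyz2, Mpeg1, Ptprc, Cd53, Cd84 and Fcgr3. With any 1 pool left out the median stood at 75% to 90% of the 10 pairs, and at 50% for all genes. The part of blood, marrow or lymphoid cells in the levels of the macrophage genes was not tested.

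Of the 7 monocyte markers, 4 were lowest in stress pool 1 and 5 highest in stress pool 3, and Ccr2, Ace and Nr4a1 had their lowest values in other pools. Ly6c2, of inflammatory monocytes, stood at 1.72, 1.94 and 3.69 CPM in controls and at 0.581, 1.99 and 4.63 CPM in stress pools. The oligodendrocyte and central nervous system list had another order, with 30.1, 153 and 147 CPM in controls and 36.6, 202 and 65.6 CPM in stress pools. Blood endothelial markers were level, at 120 to 129 CPM in every pool. B cell markers summed to 37.8 to 46.7 CPM in controls and 29.7 to 50.5 CPM in stress pools, with all 6 lowest in stress pool 1 and 5 of 6 highest in stress pool 3. Their list mean of log2 CPM ran from -0.86 in stress pool 1 to 0.81 in stress pool 3, relative to the mean over the pools. The 10 T and NK cell markers gave 497 to 515 and 456 to 507 CPM, nearly all from Thy1, which neurons also express. Of the 6 that could be tested, 3 were lowest and 2 highest in stress pool 1. The list mean of these 6 was -0.54 in stress pool 1, 0.30 in control pool 3 and 0.31 in stress pool 3. Mast cell markers gave 99.8 to 103 and 101 to 104 CPM, mostly from Kit, which sensory neurons express too.

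**Figure D3:**
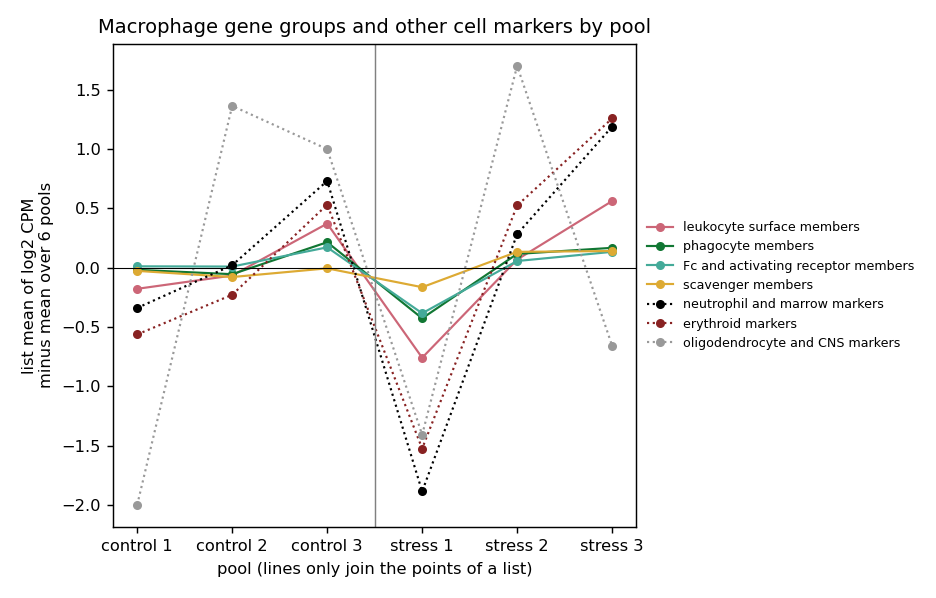
Mean log2 CPM of each gene list minus its mean over the 6 pools (y axis), by pool (x axis), with solid lines for macrophage gene groups and dotted lines for markers of other cells. The leukocyte surface genes run from -0.76 in stress pool 1 to 0.56 in stress pool 3 beside the neutrophil markers (-1.89 to 1.19), while the scavenger receptors stay between -0.16 and 0.14.

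The genes differed in level as well, which was compared as CPM per kb of exon (exon union of GENCODE M21). The union of a gene's annotated exons can be longer than any 1 of its transcripts, and the ranks below depend on it. It ran from 0.667 kb for Tyrobp to 18.3 kb for Ptprc. Lyz2, which encodes lysozyme, was highest at 55.5 CPM per kb, with 36.6 to 75 over the 6 pools. Tyrobp (11), Maf (9.53) and the cathepsin Ctss (9.09) followed, and their ranges over the pools overlapped. Fcer1g (4.54), Csf1r (3.60), Fcgr3 (3.25) and Mpeg1 (3.25) came next, also with overlapping ranges. The lowest were Ms4a7 (0.235), Msr1 (0.203), Itgax (0.173) and Timd4 (0.121). Timd4, a phosphatidylserine receptor of long-lived resident macrophages in other tissues, was thus near the limit of detection, with 0.229 to 0.331 CPM. The values of Itgam and Lyz2 are uncertain. Itgam shares 68.7% of its annotated exon bases with Gm49368 on the same strand, which had 0 counts in all pools, and 15.4% of the 50-base stretches of Lyz2 also occur in Lyz1.

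**Figure D4:**
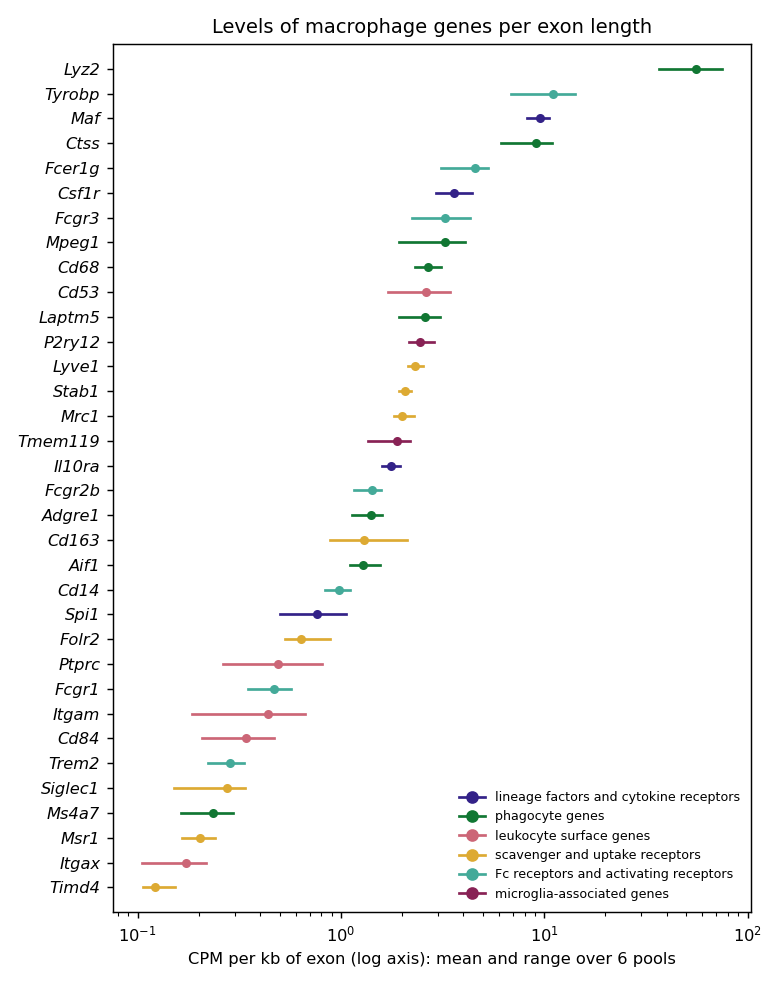
Level of each macrophage gene as CPM per kb of exon on a log axis, with the mean over the 6 pools as a point and the range as a line. Lyz2 stands apart at 55.5 CPM per kb, and Timd4 is lowest at 0.121.

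Among the lineage factors and cytokine receptors, no gene separated the groups. In what follows the values are CPM in control pools 1 to 3 and then in stress pools 1 to 3. Csf1r, the receptor for CSF1 and IL-34 that keeps macrophages alive, stood at 19.5, 20.3 and 21.3 and then at 16.9, 25.4 and 21.2 CPM (log2 fold change 0.06 ± 0.13 SE, adjusted p = 0.914). Stress pool 1 lay below the controls, stress pool 2 above them and stress pool 3 among them. Spi1, which encodes PU.1, stood at 1.56, 1.77 and 2.35 and then at 1.34, 2.4 and 2.87 CPM (0.21 ± 0.29, adjusted p = 0.843). Il10ra, the chain of the interleukin-10 receptor that binds the cytokine, stood at 6.08, 6.19 and 6.82 and then at 5.58, 6.20 and 5.95 CPM (-0.11 ± 0.08, adjusted p = 0.682). Its pools were among the closest of the list, with a coefficient of variation of 6.60% over the 6 pools.
Maf, a transcription factor that macrophages share with classes of sensory neurons, behaved unlike the rest. It stood at 86.3, 74.4 and 75.6 and then at 87.0, 80.6 and 67.4 CPM (-0.01 ± 0.10, adjusted p = 0.991). Only 2 of the 15 pool pairs were ordered as the neutrophil sum, and stress pool 1 was its highest pool. Its exons overlap those of Gm15655 on the other strand over 5.34% of their bases, and those of Csf1r overlap Hmgxb3 over 15.1%.

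Of the 8 phagocyte genes, all had their lowest value in stress pool 1 and 0 passed the test. Lyz2 stood at 62.4, 66.0 and 83.3 and then at 48.1, 80.1 and 98.7 CPM (0.10 ± 0.24, adjusted p = 0.917). Mpeg1, the pore-forming perforin-2 of macrophages, stood at 13.6, 13.8 and 16.6 and then at 8.37, 14.4 and 17.6 CPM (-0.13 ± 0.24, adjusted p = 0.884). Ctss, a lysosomal protease of antigen-presenting cells, stood at 11.3, 12.6 and 14.1 and then at 8.32, 14.9 and 12.9 CPM (-0.07 ± 0.20, adjusted p = 0.927). In each of these 3 genes the other stress pools were above the lowest control, so the groups overlapped.
Laptm5, a lysosomal membrane protein of blood cells, stood at 9.43, 9.40 and 10.8 and then at 7.35, 10.3 and 11.6 CPM. Adgre1, which encodes the antigen F4/80, stood at 4.12, 4.34 and 4.98 and then at 3.65, 5.07 and 5.15 CPM. Cd68, a lysosomal glycoprotein used to stain macrophages, stood at 3.60, 3.04 and 3.55 and then at 2.89, 3.88 and 3.14 CPM. Their log2 fold changes were within 0.05 of 0, at -0.02 ± 0.16, 0.04 ± 0.15 and -0.04 ± 0.14. Aif1, which encodes the actin-binding protein Iba1, stood at 1.89, 1.74 and 2.38 and then at 1.69, 2.11 and 1.94 CPM (-0.07 ± 0.16). Ms4a7, a membrane protein of border-associated macrophages in the brain, stood at 1.24, 1.03 and 1.31 and then at 0.723, 0.895 and 1.08 CPM (-0.41 ± 0.20, adjusted p = 0.487). It had the most negative log2 fold change of the 34, yet the highest stress pool lay above the lowest control.

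The 5 leukocyte surface genes varied most between pools, with a median coefficient of variation of 28.5%, against 15.9% for all 34 and 7.9% for all genes tested. Ptprc, the phosphatase CD45 found on all leukocytes, stood at 6.80, 7.84 and 10.5 and then at 4.80, 8.94 and 14.8 CPM (0.17 ± 0.37, adjusted p = 0.907). Itgam, the CD11b chain of the complement receptor, stood at 1.96, 1.89 and 2.94 and then at 0.930, 2.17 and 3.35 CPM (-0.09 ± 0.42, adjusted p = 0.961). In both, stress pool 1 was the lowest and stress pool 3 the highest, with ratios between those pools of 3.08 and 3.60. The tetraspanin Cd53 stood at 3.83, 4.22 and 5.39 and then at 2.96, 4.85 and 5.96 CPM (0.03 ± 0.25). Cd84, an adhesion receptor of the SLAM family, stood at 1.77, 1.89 and 2.68 and then at 1.30, 2.17 and 2.94 CPM (0.00 ± 0.30). Itgax, the CD11c chain, was below 1 CPM on average, with 0.504 to 1.05 CPM over the 6 pools (-0.19 ± 0.28). All 5 genes had at least 14 of the 15 pool pairs in the order of the neutrophil sum.

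Promoters were read for every member found in the table, whatever its pool order, since PU.1 binds sites with a GGAA core in many myeloid promoters. The RefSeq table (GRCm38.p6; 250 bases before to 50 after the start) held 27 promoters of 23 of the 34 genes. The letters GAGGAA, searched on both strands, were found in 55.6% of these promoters and in 28.3% of all 32851 promoters of that length in the table. The longer string GAGGAAGT was found in 7.41% and 3.2%. Any GAGGAAGT match also counts as a GAGGAA match. Shown here are Cd53, Itgam and Lyz2, with at least 14 of 15 pool pairs in the neutrophil order, and Mrc1, which did so in 10 of 15 pairs. Capitals mark GAGGAA or its reverse complement TTCCTC, and each sequence runs 5′ to 3′ on the gene's strand.
Cd53 (chr3:106790100-106790399, minus strand): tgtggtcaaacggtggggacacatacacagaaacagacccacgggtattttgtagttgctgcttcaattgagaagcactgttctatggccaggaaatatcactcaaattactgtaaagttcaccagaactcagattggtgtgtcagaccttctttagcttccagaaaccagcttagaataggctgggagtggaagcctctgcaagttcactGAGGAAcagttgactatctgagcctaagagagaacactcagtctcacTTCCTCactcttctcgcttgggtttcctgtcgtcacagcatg
Itgam (chr7:128062390-128062689, plus strand): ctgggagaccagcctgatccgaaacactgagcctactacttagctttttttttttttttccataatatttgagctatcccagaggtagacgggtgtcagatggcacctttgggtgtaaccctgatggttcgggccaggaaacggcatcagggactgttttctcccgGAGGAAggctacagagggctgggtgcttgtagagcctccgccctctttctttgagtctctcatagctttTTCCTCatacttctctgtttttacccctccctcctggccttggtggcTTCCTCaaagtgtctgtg
Lyz2 (chr10:117282223-117282522, minus strand): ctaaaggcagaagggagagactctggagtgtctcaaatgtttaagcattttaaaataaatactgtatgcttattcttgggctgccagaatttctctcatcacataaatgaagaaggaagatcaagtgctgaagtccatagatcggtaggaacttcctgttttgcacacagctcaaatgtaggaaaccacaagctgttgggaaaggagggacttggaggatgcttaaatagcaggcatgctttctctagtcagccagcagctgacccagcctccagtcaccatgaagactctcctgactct
Mrc1 (chr2:14229164-14229463, plus strand): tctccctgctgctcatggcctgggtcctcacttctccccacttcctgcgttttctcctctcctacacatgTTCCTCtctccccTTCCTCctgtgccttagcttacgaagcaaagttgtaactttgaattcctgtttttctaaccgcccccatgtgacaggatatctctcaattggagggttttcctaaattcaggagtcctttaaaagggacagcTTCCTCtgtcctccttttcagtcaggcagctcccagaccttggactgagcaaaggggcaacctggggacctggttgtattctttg
Cd53 holds 2 matches, Itgam 3 and Mrc1 3, while Lyz2 holds none in this window. A match is a run of letters only, and binding was not measured.

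The 8 scavenger and uptake receptors had a median coefficient of variation of 14.4%, against 28.5% for the leukocyte surface genes, with Cd163 at 33.9%, and 1 of the 8 was lowest in stress pool 1. Stab1, a clearance receptor of macrophages and sinusoidal endothelium, stood at 19.8, 21.4 and 21.7 and then at 19.9, 22.7 and 22.4 CPM (0.05 ± 0.07, adjusted p = 0.848). Mrc1, the mannose receptor CD206, stood at 13.6, 11.7 and 12.0 and then at 11.7, 13.0 and 14.5 CPM (0.07 ± 0.10, adjusted p = 0.837). Lyve1, a hyaluronan receptor of perivascular macrophages and lymphatic vessels, stood at 7.41, 7.32 and 6.63 and then at 6.87, 6.27 and 6.22 CPM (-0.14 ± 0.08, adjusted p = 0.564). These 3 had coefficients of variation of 5.78%, 9.14% and 7.50%, and their 95% intervals ran from -0.11 to 0.20, from -0.15 to 0.30 and from -0.33 to 0.05. The summed lymphatic endothelial markers were 23.8 to 28.3 CPM in controls and 24.4 to 26.5 CPM in stress pools. Their list mean of log2 CPM, relative to the mean over the pools, ran from -0.39 in stress pool 1 to 0.35 in stress pool 2.
Cd163, the receptor that takes up haemoglobin bound to haptoglobin, had the most positive log2 fold change of the 34. It stood at 4.80, 5.89 and 6.48 and then at 5.82, 7.92 and 11.5 CPM (0.55 ± 0.24, adjusted p = 0.455). Stress pools 2 and 3 lay above every control, and stress pool 1 lay within the controls. The log2 fold change was 0.26 without stress pool 3 and 0.75 without stress pool 1, with adjusted p of 0.681 and 0.55. With the replicate number as a block it was 0.51 ± 0.12 (adjusted p = 0.268). The erythroid markers, as given above, were also highest in stress pool 3, but they were lowest in stress pool 1, whereas Cd163 was lowest in control pool 1, and their part in its level was not tested.
Siglec1, the sialic acid receptor CD169, stood at 1.82, 2.08 and 2.21 and then at 1.07, 2.22 and 2.42 CPM (-0.11 ± 0.29). It was the receptor of this group that was lowest in stress pool 1. Msr1, the scavenger receptor for modified lipoproteins, stood at 1.05, 1.16 and 1.41 and then at 1.30, 1.29 and 1.53 CPM (0.18 ± 0.17). Folr2, a folate receptor of resident macrophages, had 0.816 to 1.11 CPM in controls and 0.833 to 1.37 CPM in stress pools (0.11 ± 0.24), and 63.1% of its exon bases overlap Gm10602 on the other strand. Timd4 gave 0.01 ± 0.25. The adjusted p of these 4 genes ran from 0.73 to 0.993.

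The group of Fc and activating receptors holds 7 genes, among them the signalling adaptors Fcer1g and Tyrobp. Of the 7, 6 had negative log2 fold changes, as had 9618 of the 20146 genes tested. Tyrobp stood at 6.07, 7.26 and 9.41 and then at 4.57, 7.71 and 9.01 CPM (-0.10 ± 0.26, adjusted p = 0.921). Fcer1g stood at 4.12, 3.53 and 4.39 and then at 2.70, 4.45 and 4.61 CPM (-0.04 ± 0.21, adjusted p = 0.964). Both adaptors were lowest in stress pool 1, and without that pool the log2 fold change was 0.13 for Tyrobp and 0.17 for Fcer1g. Fcgr1, Fcgr2b, Trem2 and Cd14 stayed negative without it. Fcgr3, an activating receptor for IgG, stood at 5.13, 5.21 and 6.44 and then at 3.87, 5.77 and 7.46 CPM (0.02 ± 0.23). Fcgr2b, its inhibitory counterpart, stood at 9.08, 8.55 and 8.25 and then at 6.71, 8.03 and 8.70 CPM (-0.14 ± 0.10). Of the 50-base stretches of the longest Fcgr3 transcript, 12.8% also occur in Fcgr2b, and how the counting treated such reads is not given. Fcgr1, the high-affinity IgG receptor, stood at 1.21, 1.46 and 1.19 and then at 0.904, 1.17 and 1.32 CPM (-0.19 ± 0.19). The lipopolysaccharide co-receptor Cd14 stood at 1.74, 1.45 and 1.92 and then at 1.70, 1.73 and 1.67 CPM (-0.00 ± 0.14), and its stress pools lay within the controls.
Trem2, a lipid receptor that signals through Tyrobp, stood at 1.54, 1.56 and 1.65 and then at 1.10, 1.47 and 1.16 CPM (-0.35 ± 0.16, adjusted p = 0.467). Every stress pool was below every control, with stress pool 2 only just below. Without stress pool 1 its log2 fold change was -0.27, and without stress pool 2 it was -0.49. Over the alternatives that gave one, its adjusted p ran from 0.349 to 0.712, so the difference did not pass under any of them.

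P2ry12, an ADP receptor by which microglia sense injury, came closest to a difference between the groups. It stood at 6.60, 6.76 and 7.32 CPM in control pools 1 to 3 and at 5.64, 5.48 and 5.73 CPM in stress pools 1 to 3. The groups did not overlap, and the stress pools lay within 0.3 CPM of each other. The log2 fold change was -0.30 ± 0.08 (95% interval -0.48 to -0.12, unadjusted p = 0.0058) and the edgeR adjusted p was 0.294, so it did not pass over all genes. It ranged from -0.33 to -0.25 over the 13 alternatives, with adjusted p from 0.113 to 0.634. Microglia of the central nervous system express P2ry12, so central markers were read beside it. The oligodendrocyte and central nervous system list was lowest in control pool 1 (30.1 CPM), where P2ry12 was 6.60 CPM, and highest in stress pool 2 (202 CPM), where P2ry12 was at its lowest. Over all 15 pairs of pools P2ry12 was ordered as that list in 7, and the part of central nervous system tissue in its level was not tested. Satellite glia markers summed to 1121, 1175 and 1090 CPM in control pools and to 1023, 1004 and 992 CPM in stress pools. These sums did not overlap between the groups either, and the part of satellite glia in the level of P2ry12 was not tested.
Tmem119, a membrane protein of microglia that other cells also make, did not separate the groups. It stood at 4.79, 4.33 and 4.39 and then at 4.35, 5.08 and 3.16 CPM (-0.10 ± 0.17, adjusted p = 0.875). Its lowest pool was stress pool 3 and its highest stress pool 2.

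**Figure D5:**
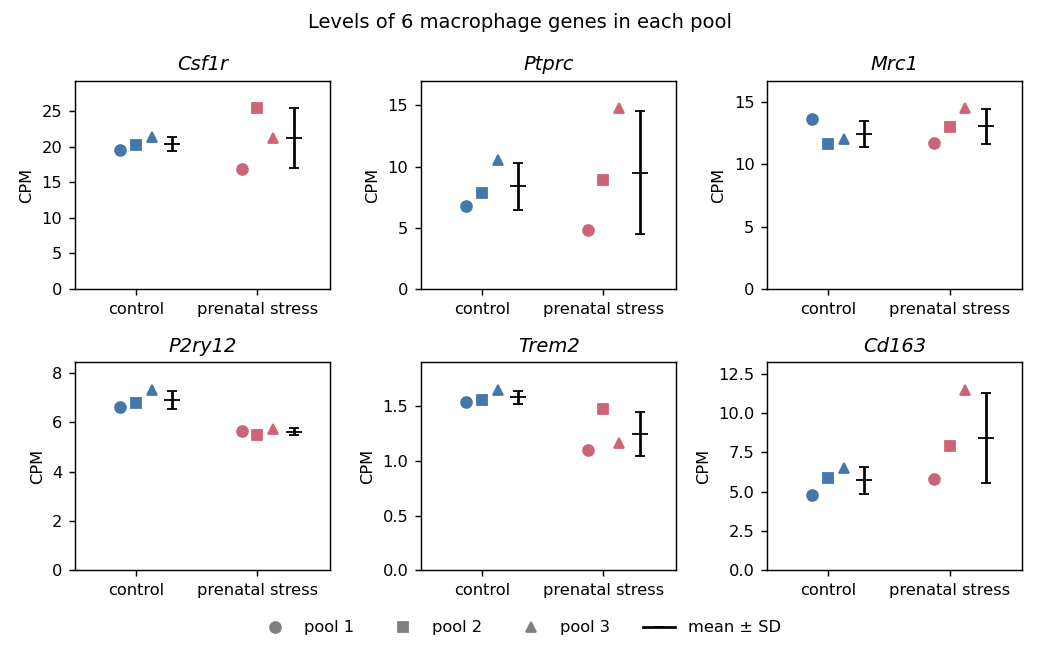
CPM of 6 macrophage genes in each pool (y axes from 0), with controls in blue, prenatal stress in red, a symbol for the pool number, and the mean ± SD over 3 pools beside them. P2ry12 and Trem2 keep the groups apart, Ptprc spans 4.80 to 14.8 CPM within the stress group, and Mrc1 overlaps.

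The rest of the pathway was read from lists beside the 34 genes. Of 9 growth factors and recruiting cytokines, 7 could be tested and 0 passed (median log2 fold change -0.15). Csf1, the ligand of Csf1r, stood at 24.9, 24.3 and 24.9 and then at 20.6, 22.1 and 18.7 CPM (-0.27, adjusted p = 0.273), and its groups did not overlap. Il34, the second ligand, stood at 33.6, 34.9 and 31.9 and then at 32.6, 32.8 and 29.1 CPM (-0.09, adjusted p = 0.627). The monocyte attractant Ccl2 stood at 5.15, 3.93 and 3.69 and then at 3.03, 2.91 and 3.62 CPM (-0.42, adjusted p = 0.414), also without overlap. Ccl7, a chemokine for the same receptor, stood at 1.38, 1.34 and 1.25 and then at 1.09, 0.941 and 1.16 CPM (-0.32, adjusted p = 0.477), also without overlap. That made 3 of 7 genes below the controls without overlap, against 8.76% of all genes tested. Csf3 had no counts in any pool.
Of 14 kinases and adaptors that act below the Fc and activating receptors, 0 passed, and 12 had positive values with a median of 0.07. Their list mean was lowest in stress pool 1 (-0.55) and highest in stress pool 3 (0.51), as for the leukocyte surface genes. The kinase Syk, for example, stood at 4.31, 5.18 and 7.34 and then at 3.15, 6.72 and 9.97 CPM (0.23, adjusted p = 0.874).
Of 40 other macrophage genes, 0 passed, with 20 positive and 20 negative values and a median of 0.00. The complement genes C1qa, C1qb and C1qc, which macrophages make, were each lowest in stress pool 1, at 10.9, 10.2 and 10.3 CPM against 11.7 to 15.4 CPM in the controls. Their log2 fold changes were -0.10, -0.22 and -0.05, with adjusted p from 0.544 to 0.906.
Among the other cell types, 0 genes of any list passed. The 6 satellite glia markers all had negative values (median -0.20). Of these, 3 lay below the controls without overlap, against 8.76% of all genes tested. Fabp7, a fatty acid binding protein, stood at 167, 147 and 140 and then at 121, 84.2 and 106 CPM (-0.55, adjusted p = 0.273). In the monocyte list, Nr4a1, a nuclear receptor of patrolling monocytes that active neurons also induce, stood at 36.3, 46.5 and 43.1 and then at 32.1, 33.6 and 31.0 CPM (-0.38, adjusted p = 0.268). Dendritic cell markers, 5 of 7 of them testable, summed to 44.4 to 45.3 CPM in controls and 44 to 46 CPM in stress pools.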

How the data were processed

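Paired-end libraries were made from 6 pools of ganglia with a stranded mRNA kit after poly-T selection, per the labels' protocols. The authors deposited whole-number counts, 1 file per pool, with a gene symbol on each line. FastQC, STAR 2.4 and HTSeq 0.9.1 and the builds GRCm39 and mm10 are named in the submitters' processing notes. Which build, annotation and strand setting lie behind the counts is not given in the sources used here. Lines that name no gene (15.3% to 16.2% of a file) were dropped.

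The counts were fitted in edgeR 4.0.16 under R 4.3.3, after filterByExpr at a minimum count of 10, with TMM scaling and group as the sole term. A gene was called at an adjusted p under 0.05. The SE was the log2 fold change divided by the square root of F. CPM used TMM-scaled library sizes, and log2 CPM a prior count of 2. The fit was tested on simulated data. Alternatives were DESeq2 1.42.0, other scalings and filters, a robust spread, the replicate block and leaving out each pool. No pair of pools agreed within sampling noise (chi-square per degree of freedom 10.6 to 36.4 over 15 pairs).

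The members and lists were chosen with earlier results of these data known. All 34 members are accounted for, with every pool's value at a mean of at least 1 CPM, and up to 3 genes of smallest p could be named from each other list. Ly6c2, Il34, Csf3, Kit, S100a8, S100a9 and the C1q genes fall outside this rule and were picked with their values in view, as were the neutrophil ordering of pools and the promoter strings.

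Both groups carry replicate numbers 1 to 3. Across genes, the deviations of equal-numbered pools from their group means correlated at 0.337, 0.218 and 0.13. Control pool 3 with stress pool 2 gave 0.122, close to the third pair, and the other unequal-numbered combinations gave negative values. The numbers were treated as pairs on these correlations alone, since no label explains them. Exon lengths, overlaps and shared 50-base stretches came from GENCODE M21 (GRCm38), which may differ from the annotation counted.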

Additional observations from a re-analysis of the deposited data

How the results depend on the processing

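No macrophage gene was called under any of the 13 alternatives run. Over all genes tested the count of calls was 26, and it was 49 without the low-count filter, 335 with DESeq2's Wald test and 2 to 14 with 1 pool left out. With the replicate block it was 22, and the block changed no call of a macrophage gene. The median log2 fold change of the 34 genes ranged from -0.14 to 0.13 with 1 pool left out. The count of macrophage genes whose groups do not overlap was 3 to 8 of 34 with 1 pool left out. That is 8.82% to 23.5% of them, against 25.9% to 31.2% of all genes in the same settings. The count was 8 (23.5%) without stress pool 1, where 27.4% of all genes did not overlap. Of 427 macrophage gene values under the alternatives, 372 had the sign of the main value, and 10 of the 34 genes had 1 sign throughout. The robust spread leaves the log2 fold changes of the main fit unchanged, so its signs could not differ. Leaving out pools from the neutrophil ordering was chosen after seeing the data. At least 50 counts were found in every pool for 31 of the 34 genes, and where depth begins to limit the comparison was not tested.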
